A study of Mus musculus with 31 samples.

Results

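The comparison set mice with ovaries against mice with testes in a forebrain tissue, the bed nucleus of the stria terminalis and preoptic area (BNST/POA). The ovary-bearing group was the 8 XX females, whose array descriptions carry no Sry. The testis-bearing groups were 7 XX males, 8 XXY males and 8 XY males, whose descriptions all carry Sry. All 31 arrays of the series entered, 23 of them from testis-bearing mice, and the 3 testis-bearing groups counted equally whatever their number of arrays. All mice were of the outbred stock MF1 and aged 152 days, and they came from the Sex Chromosome Trisomy model of Klinefelter syndrome. The series asks whether a feminized choice of partner in XXY mice goes with feminized gene expression. The present contrast sets XX females against the mean of the testis-bearing groups in the same tissue, and so also mixes differences in X and Y chromosome number. In this model Sry, the gene that starts testis development, is carried as a transgene apart from the Y chromosome. The transgene, the chromosome region around its insertion and the type of gonad therefore coincided on every array and cannot be told apart. The insertion site in these animals, the estrous stage of the females and any gonadectomy or hormone treatment are not stated in the sources used here.

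The BNST and preoptic area hold neurons that respond to sex steroids and take part in mating, partner preference and the control of ovulation. Testosterone acts in this tissue in part after conversion by aromatase, through the estrogen receptors. Estradiol from the ovary raises expression of the kisspeptin gene Kiss1 in the anterior preoptic region of rodents, where the peptide stimulates the neurons that release gonadotropin-releasing hormone. Trim59 encodes a tripartite-motif protein of the E3 ubiquitin ligase family, and in a related mouse model that also carries Sry as a transgene that transgene has been mapped to chromosome 3, the chromosome that carries Trim59.

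The promoter windows of Kiss1 and Trim59 are shown because these were the only named autosomal genes past the threshold in the pooled comparison. They were taken from RefSeq on GRCm38.p6 and run from 250 bases before to 50 bases after a start site. The Kiss1 window lies at chr1:133326962-133327261 on the plus strand, around a start site within the annotated gene, which spans chr1:133321887-133329722. Capitals mark the core letters AGGTCA of estrogen response elements on either strand, which on the plus strand may read TGACCT. The Trim59 window lies at chr3:69044693-69044992 on the minus strand, at the upstream end of a gene spanning chr3:69035292-69044742.
Kiss1: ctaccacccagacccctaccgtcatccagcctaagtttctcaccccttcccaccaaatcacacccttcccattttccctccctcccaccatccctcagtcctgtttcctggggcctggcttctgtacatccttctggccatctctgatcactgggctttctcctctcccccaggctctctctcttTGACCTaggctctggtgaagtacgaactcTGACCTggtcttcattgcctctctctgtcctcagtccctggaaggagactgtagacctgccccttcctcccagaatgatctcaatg
Trim59: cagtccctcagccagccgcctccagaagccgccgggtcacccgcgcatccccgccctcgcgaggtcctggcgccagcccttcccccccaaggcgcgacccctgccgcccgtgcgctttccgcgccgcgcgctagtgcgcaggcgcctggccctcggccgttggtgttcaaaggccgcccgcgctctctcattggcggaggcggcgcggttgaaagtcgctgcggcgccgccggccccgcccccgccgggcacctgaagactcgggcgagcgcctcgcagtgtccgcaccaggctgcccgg
The Kiss1 window held 2 such core motifs, starting 65 and 36 bases before the start site, and the Trim59 window held 0. At least 1 core motif was present in 16.3% of 32851 RefSeq promoter windows of the same length, and at least 2 were present in 1.81%. The full palindromic estrogen response element, which is GGTCA, any 3 bases and the reverse complement, was in neither window and in 0.07% of all windows. The palindromic androgen or glucocorticoid element, which is AGAACA, any 3 bases and the reverse complement, was in neither window and in 0.00913% of all. The Trim59 window was 76.7% G and C and the Kiss1 window 55.3%. These matches describe the letters of the windows.

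Single-colour Illumina bead arrays gave a mean bead intensity for 25697 probes, of which 12939 to 14397 were detected per array. After normalization and a filter on detection, 11712 tests remained, made up of 8973 named genes and 2739 unnamed probes. Of the named genes, 8663 were autosomal, 308 lay on the X chromosome and 1 on the Y. The descriptions name 2 batches, with 5 arrays of each group in batch 1, and 3 of each group in batch 2 except the XX males, with 2 there. Array XX male 6 is described as batch 1 but sat at 27.7 on the main axis of variation, among the batch 2 arrays at 20.4 to 31.5, and leaving it out kept the same 6 calls. Xist, the RNA that silences an X chromosome, was detected on every XX and XXY array and on 0 of 8 XY arrays, as the labels imply. Of the tissue's own markers, Esr1 was detected on every array and 11 of 19 listed BNST and preoptic markers were measured. Marker lists of neighbouring regions and other cells varied widely between arrays within each group. The meningeal list mean, for example, ranged from -1.30 to 1.15 over the XX females and from -1.51 to 1.46 over the XY males, as a log2 deviation from each gene's mean. The labels call the arrays biological replicates without saying that each is another animal, and p-values here describe the spread among the deposited samples.

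Levels below are log2 signals with the fitted batch difference removed, and differences are log2 values of XX females minus the equally weighted mean of the 3 testis-bearing groups. They come from 1 limma fit over all arrays with group and batch as terms, and adjusted p-values are Benjamini-Hochberg values over all 11712 tests, with a threshold of 0.05. SE is the standard error of the fit and intervals are 95% intervals. In bulk tissue, fewer cells of a type and less RNA per cell cannot be told apart.

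The pooled comparison of XX females with the mean of the testis-bearing groups called 6 of 11712 tests, or 0.0512%. Kiss1 was the sole test called higher in XX females (0.00854% of tests). Trim59 and the unnamed probes ILMN_2899599, ILMN_1241001, ILMN_1224210 and ILMN_1221193 were called lower (0.0427%). Of these, ILMN_2899599, ILMN_1241001 and ILMN_1224210 were as low in XX males as in XX females. Trim59, ILMN_1241001, ILMN_1224210 and ILMN_1221193 were detected on 0 of 8 XX female arrays. They passed the detection filter through testis-bearing arrays alone. That filter asks for 7 arrays, which 23 testis-bearing arrays reach more easily than 8 XX female arrays. This limits the split by direction. Without the filter the same 6 tests were called. Among autosomal named genes, Kiss1 and Trim59 were the calls, 2 of 8663 or 0.0231%. No named gene of the X or Y chromosome was called in the pooled comparison.

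**Figure D1:**
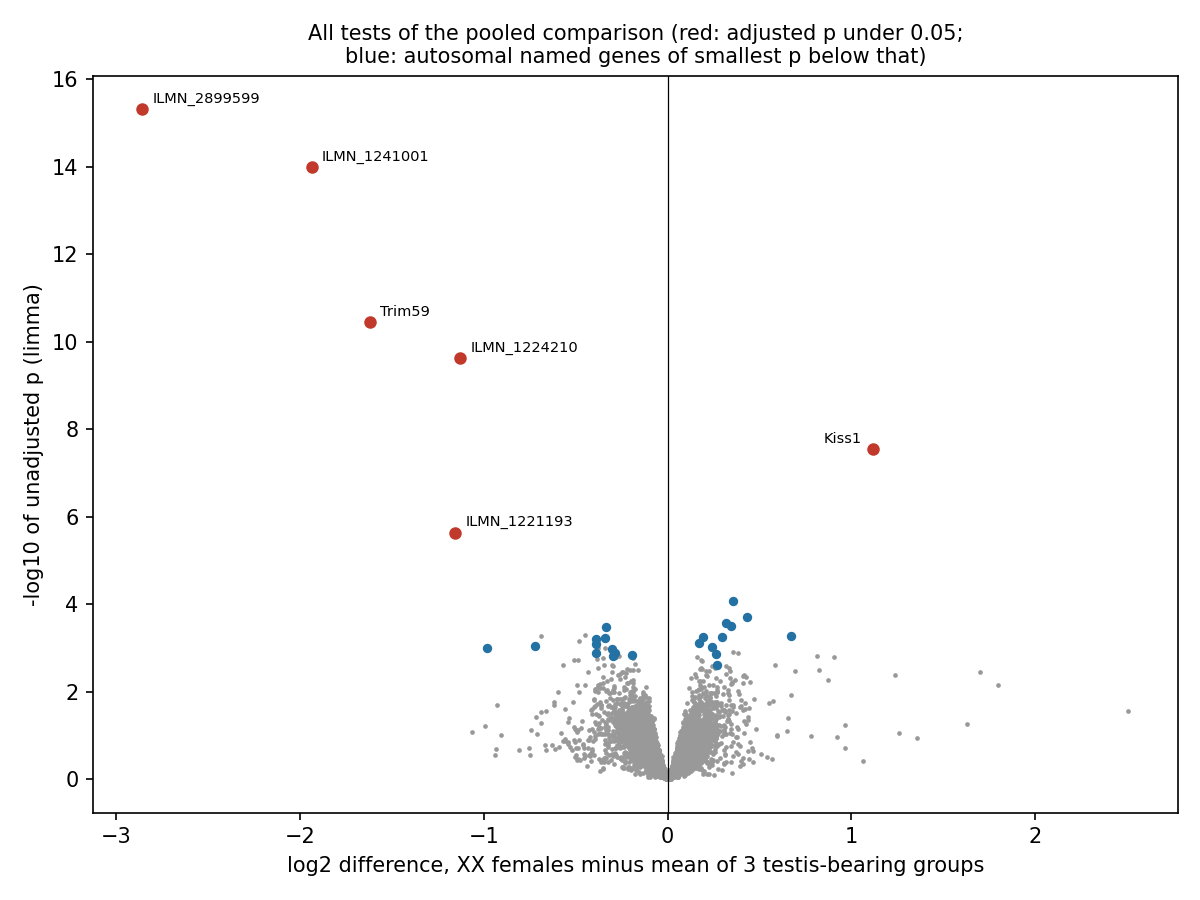
Every test of the pooled comparison by its log2 difference (x axis) and the negative log10 of its unadjusted p (y axis). Red points passed an adjusted p of 0.05 and are named; blue points are the autosomal named genes of smallest p that did not pass. Kiss1, at 1.12, is the sole red point to the right of 0.

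Kiss1 mRNA was higher in the XX females than in each testis-bearing group. The 8 XX female arrays ran from 7.50 to 8.44 with a median of 7.99. The XX males ran from 6.33 to 7.14 (median 6.64), the XXY males from 6.45 to 7.80 (median 6.84) and the XY males from 6.38 to 7.22 (median 6.74). All 8 XX female arrays lay above every XX male and XY male array, and array XXY male 3 was the only one of 23 testis-bearing arrays inside the female range. The pooled difference was 1.12 (SE 0.149, adjusted p = 6.79e-05), a 2.17-fold higher level with an interval of 1.75 to 2.68. Set against the groups in turn, the difference was 1.22 from XX males (adjusted p = 0.00244), 0.97 from XXY males (adjusted p = 0.0183) and 1.16 from XY males (adjusted p = 0.000826). Those 3 comparisons share the XX female arrays. The 3 testis-bearing groups did not pass the moderated F-test among themselves for Kiss1 (adjusted p = 0.963).

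The Kiss1 difference was 0.96 within batch 1 and 1.37 within batch 2, and neither batch alone passed the threshold (adjusted p = 0.162 and 0.130). Leaving out any 1 array kept the Kiss1 call, with differences from 1.04 to 1.18. Without background correction the difference was 0.60 (adjusted p = 1.92e-05), so its size depends on that step. The array carries 1 named Kiss1 probe, ILMN_2735829, detected on all 31 arrays, so no second probe was available.

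Trim59 was at background in XX females and detected in nearly every testis-bearing mouse. Its probe ILMN_2993661 was detected on 0 of 8 XX female arrays, 7 of 7 XX male, 8 of 8 XXY male and 7 of 8 XY male arrays. XX females ran from 4.73 to 5.59 with a median of 5.06, all below the detection limit. The XX males ran from 6.01 to 7.02 (median 6.63), the XXY males from 6.54 to 7.07 (median 6.85) and the XY males from 5.36 to 7.29 (median 6.96). The lowest XY value belonged to array XY male 4, the only testis-bearing array where the probe was not detected. Since the females gave only a bound, Trim59 was at least 2.24-fold lower in them than in the mean of the testis-bearing groups (adjusted p = 1.40e-07). That bound sets the mean of the brighter groups against the lowest detected signal of each female array or the probe's own, whichever was higher. Array XY male 4 entered at its own signal. The adjusted p-values given beside Trim59 bounds are those of the fitted differences.

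The bounds for Trim59 were at least 2.05-fold lower against XX males, 2.40-fold against XXY males and 2.29-fold against XY males, with adjusted p-values of 0.000406, 2.09e-06 and 3.50e-06. XX males share their sex chromosomes with the XX females and had the testis-bearing level. Trim59 was also called within batch 1 and within batch 2 alone (adjusted p = 0.0028 and 0.0014). Without background correction its fitted difference, which is no bound, was -0.57 (adjusted p = 1.06e-06). The bounds hold for background-corrected signals, since the size of the difference depends on that step. The moderated F-test among the testis-bearing groups did not pass for Trim59 (adjusted p = 0.971).

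**Figure D2:**
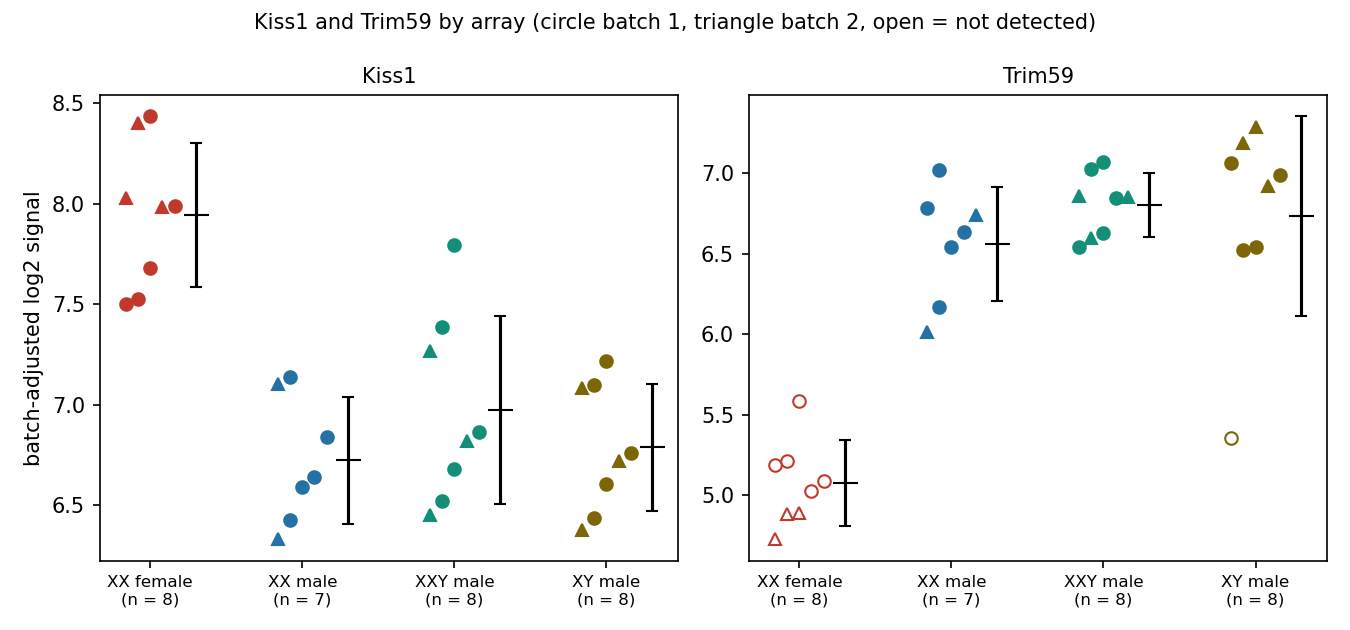
Batch-adjusted log2 signal (y axis) of Kiss1 and Trim59 on each array, by group; circles are batch 1, triangles batch 2, open symbols arrays where the probe was not detected, and black bars the mean and SD. XX females sit from 7.50 to 8.44 for Kiss1 and, undetected throughout, from 4.73 to 5.59 for Trim59; array XXY male 3 is the only testis-bearing array inside the female range of Kiss1, and array XY male 4 the only one where Trim59 was not detected.

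Tested genes within 500 kb of Kiss1 and Trim59 had differences near 0. Within 500 kb of Kiss1, the 5 tested genes, Plekha6, Sox13, Ppp1r15b, Atp2b4 and Lrrn2, differed by -0.13 to 0.06. Within 500 kb of Trim59, the 3 tested genes Ift80, Ppm1l and Schip1 differed by -0.000080 to 0.05. Of these neighbours, 0 had an unadjusted p under 0.05 and 0 passed the threshold in limma. Ift80, 30.6 kb from Trim59, encodes a protein of intraflagellar transport in cilia and differed by 0.03 (SE 0.080). Farther from Trim59, which starts at 69.0 Mb, Rsrc1 at 67.0 Mb differed by 0.27 and Lekr1 at 65.7 Mb by 0.25. Their unadjusted p-values in limma were 0.0049 and 0.0071. Of 21 genes tested from 60 to 70 Mb of chromosome 3, 3 were higher at an unadjusted p under 0.05 and 1, Trim59, was lower.

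Of the 4 unnamed probes, 3 were high in the groups with a Y chromosome. The other was detected on 13 of 23 testis-bearing arrays and on 0 of 8 XX female arrays. ILMN_2899599 had medians of 7.16 in XX females, 6.73 in XX males, 11.01 in XXY males and 11.26 in XY males. ILMN_1241001 and ILMN_1224210 were detected on 0 of 8 XX female and 0 of 7 XX male arrays, and on all 8 XXY and all 8 XY arrays. XX females and XX males differed by 0.07, -0.09 and -0.10 at these 3 probes in turn (adjusted p = 0.953, 0.928 and 0.903). The testis-bearing groups differed among themselves at each of them by the moderated F-test (adjusted p = 4.99e-15, 4.66e-13 and 3.42e-08). Their place among the pooled calls therefore came from the XXY and XY groups, and with the 23 testis-bearing arrays taken as 1 group none of the 3 passed (adjusted p = 0.337, 0.291 and 0.291).

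ILMN_1221193 had its lowest median in the XX females, where it was not detected. It was detected on 0 of 8 XX female, 4 of 7 XX male, 5 of 8 XXY male and 4 of 8 XY male arrays. XX females ran from 4.00 to 5.06 (median 4.93), XX males from 5.11 to 7.01 (median 5.97), XXY males from 4.98 to 6.42 (median 5.79) and XY males from 5.05 to 6.23 (median 5.76). The XX female values, and those of the other arrays where the probe was not detected, lie at background and have no order. The fitted difference of ILMN_1221193 in the pooled comparison was -1.16 (adjusted p = 0.00452 in limma). Both sides of that difference hold background values, so it gives no reliable fold and no bound. Set against the groups in turn in limma, it passed against XX males (adjusted p = 0.0478). It did not pass against XXY males (adjusted p = 0.0947) or XY males (adjusted p = 0.198). The probe no longer passed when batch was dropped from the fit (adjusted p = 0.532) or in batch 1 alone (adjusted p = 0.998).

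**Figure D3:**
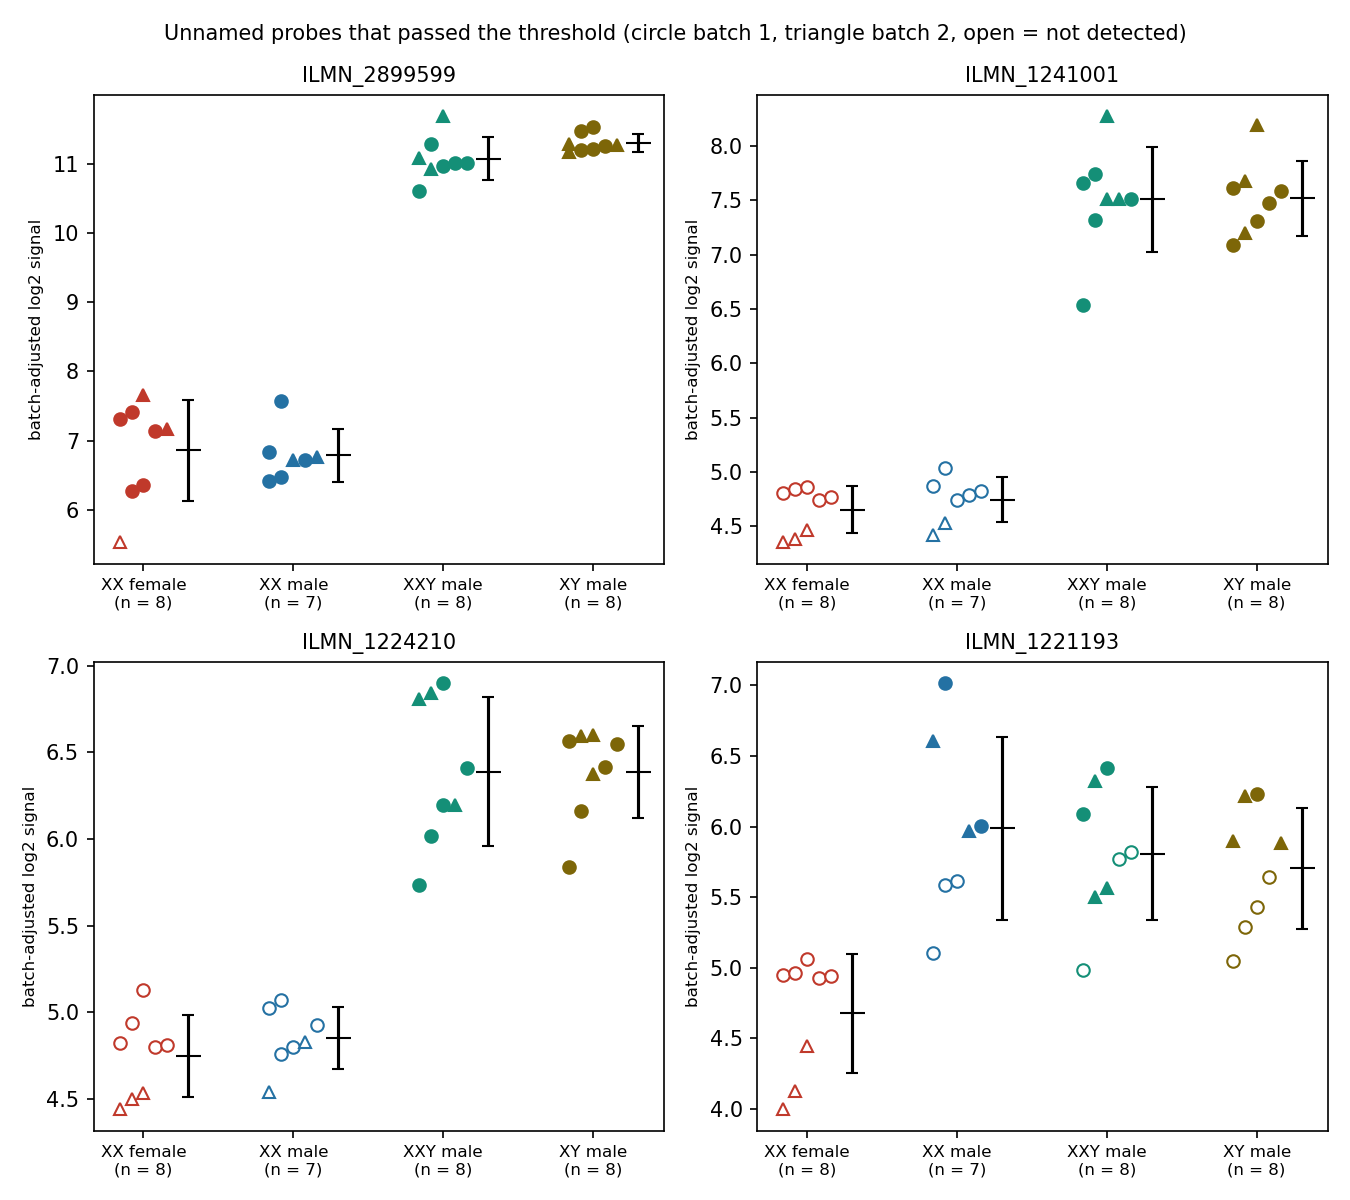
Batch-adjusted log2 signal (y axis) of the 4 unnamed probes past the threshold, by group, with symbols as for Kiss1 and Trim59 and black bars for the mean and SD. XX males lie with XX females for ILMN_2899599; ILMN_1241001 and ILMN_1224210 were detected on no XX female or XX male array; ILMN_1221193 was detected on 13 of 23 testis-bearing arrays and on 0 of 8 XX female arrays.

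The group-by-group comparisons called 3 tests against XX males (0.0256%), 6 against XXY males (0.0512%) and 8 against XY males (0.0683%). Kiss1 and Trim59 were the autosomal calls in each of the 3, which share the XX female arrays. Against XX males, where both groups are XX, the third call was ILMN_1221193. The testis-bearing groups among themselves gave 8 calls by the moderated F-test (0.0683%), of which 0 were autosomal named genes (371 at an unadjusted p under 0.05). The named ones were the X-chromosomal Xist, Eif2s3x, Kdm6a and Pbdc1.

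No other autosomal named gene passed the threshold. Over all 11712 tests, an unadjusted p under 0.05 was reached by 302 higher in XX females (2.58%) and by 363 lower (3.1%). Over the 8663 autosomal genes it was reached by 237 higher and 275 lower, and the median difference was 0.000011. For 8329 autosomal genes, or 96.14%, the interval excluded a difference of 1.5-fold in either direction, and the median distance from the estimate to the end of its interval was 0.17. The estimate itself was beyond 1.5-fold for 37 autosomal genes, Kiss1 and Trim59 included. Mogs, an enzyme of glycoprotein processing, had the highest of these estimates, 1.70 (SE 0.535, adjusted p = 0.570). Noct, a circadian gene on chromosome 3, differed by 1.24 (SE 0.398, adjusted p = 0.598). Both were chosen after their values were seen. Mogs was detected on 7 of 8 XX female, 4 of 7 XX male, 4 of 8 XXY male and 6 of 8 XY male arrays. The genes next in order of p follow.

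Among the genes with higher values in XX females, Crem came next. It encodes a cAMP-responsive transcription factor whose short form ICER is induced by cAMP. XX females ran from 7.09 to 7.81 (median 7.40), XX males from 6.81 to 7.22 (median 7.08), XXY males from 6.91 to 7.26 (median 7.16) and XY males from 6.74 to 7.21 (median 7.07). The upper female arrays stood clear of the others, but 13 of 23 testis-bearing arrays reached the female range. The difference was 0.36 (SE 0.078, adjusted p = 0.139), 0.47 within batch 1 and 0.16 within batch 2. The other Crem probes gave 0.14 and 0.25.

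Mboat2, a lysophospholipid acyltransferase, differed by 0.43 (SE 0.101, adjusted p = 0.287), with 12 of 23 testis-bearing arrays in the female range. Its 3 other probes gave 0.34, 0.18 and 0.24. Tmem144, a multipass membrane protein on chromosome 3, had the largest difference of the group after Kiss1, 0.67 (SE 0.172, adjusted p = 0.406). XX females ran from 6.86 to 7.71, XX males from 5.84 to 7.06, XXY males from 5.80 to 7.23 and XY males from 6.13 to 7.03. Hacd2, an enzyme of very-long-chain fatty acid elongation, differed by 0.35 (adjusted p = 0.360), and Sowahb by 0.32 (adjusted p = 0.351).

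The remaining higher genes differed by 0.17 to 0.30. They were Pank1, which makes coenzyme A, the secreted protease gene Htra1, the chaperone partner gene Stip1, the acyl-CoA thioesterase gene Acot11, the transcription factor gene Nfil3 and the ribosomal protein gene Rpl4. Htra1 differed by 0.30 and its second probe by 0.26. Pank1 and Acot11 had further probes at 0.03, and at 0.08 and 0.03, so their probes did not give like values.

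Among the next genes by p with lower values in XX females, the largest difference was that of Anxa4, a calcium-dependent phospholipid-binding protein. It was detected on 3 of 8 XX female arrays, 7 of 7 XX male, 8 of 8 XXY male and 6 of 8 XY male arrays. XX females ran from 4.98 to 5.81, XX males from 5.30 to 7.65, XXY males from 5.99 to 7.15 and XY males from 5.09 to 7.39. Of 23 testis-bearing arrays, 5 lay in the female range, 2 from XX males and 3 from XY males. The difference was -0.98 (SE 0.270, adjusted p = 0.457), with -0.93 and -0.97 within the batches.

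Them4, a mitochondrial thioesterase, differed by -0.72 (SE 0.196, adjusted p = 0.457) and was near the detection limit. Cirbp, the cold-inducible RNA-binding protein, differed by -0.39 (SE 0.101, adjusted p = 0.410), with 9 of 23 testis-bearing arrays in the female range. Sv2a, a synaptic vesicle glycoprotein, differed by -0.39 (SE 0.104, adjusted p = 0.457), and its second probe by -0.30. Id3, an inhibitor of basic helix-loop-helix transcription factors, differed by -0.39, with 6 of 23 testis-bearing arrays in the female range. Wdr54, the antigen-presenting gene Cd1d1, Tm4sf5, Cdk2, Tuft1 and Dhrs11 differed by -0.34 to -0.19, and the second Cdk2 probe gave -0.04.

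Of the 24 autosomal named genes of smallest p, Kiss1 and Trim59 included, 6 lay on chromosome 3, which carries 5.06% of the autosomal genes tested. They were Trim59, Tmem144, Cd1d1, Sv2a, Them4 and Tuft1. An unadjusted p under 0.05 was reached by 8.68% of the 438 chromosome 3 genes, against 5.91% of autosomal genes as a whole and 10.3% of the 455 genes of chromosome 6. On chromosome 3, 16 such genes were higher and 22 lower in XX females, and Trim59 was the only one past the threshold in the fit of all arrays. In batch 2 alone Noct and Slc7a11, also on chromosome 3, passed as well. The share differed along the chromosome. It was 25.93% of 27 genes at 50 to 60 Mb, 19.05% of 21 at 60 to 70 Mb, which holds Trim59, and 22.22% of 9 at 70 to 80 Mb. In the other 10 Mb windows it ran from 0% to 12.5%. No test was made of the chromosome or its windows as a set, and the cause was not tested.

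Steroid receptors and their partners showed no call. Of 32 listed sex steroid receptor and coregulator genes 17 were measured and 0 were called by limma. An unadjusted p under 0.05 was reached by 1, and all 17 intervals excluded a 1.5-fold difference. Over all tests, 0.0512% were called, 5.68% had an unadjusted p under 0.05 and 95.67% of intervals excluded 1.5-fold. These counts therefore do not set the list apart. The list had a median difference of 0.02, beside -0.00034 over all tests. The estrogen receptor Esr2 and the aromatase gene Cyp19a1 had no named probe here. Esr1, the main estrogen receptor of the preoptic area, differed by 0.15 (SE 0.155, interval -0.17 to 0.46), and the progesterone receptor Pgr by 0.12 (SE 0.114, interval -0.12 to 0.35). Esrrb, an orphan receptor related to the estrogen receptors, had the smallest p of the list, with 0.17 (adjusted p = 0.874). Of the genes of steroid synthesis and metabolism, 16 of 33 were measured and 0 had even an unadjusted p under 0.05.

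Kiss1 was the only call in the hormone-responsive gene lists. Of 62 listed estrogen-responsive genes 40 were measured, and 1 was called, Kiss1. The lists were chosen with earlier results of these data known, so that call is no independent evidence. Unadjusted p-values under 0.05 were reached by 3 of the 40 higher, Kiss1 included, and 1 lower, or 10%, beside 5.68% over all tests. The list median was 0.01. Fos, an immediate early gene that also marks neuronal activity, differed by 0.69 (SE 0.216, adjusted p = 0.559). Siah2, an E3 ubiquitin ligase induced by estrogen in breast cells, differed by 0.22 (SE 0.077, adjusted p = 0.703). Its gene lies at 58.7 Mb of chromosome 3. Of 81 listed androgen-responsive genes 54 were measured and 0 were called, with 3.70% at an unadjusted p under 0.05 and a median of 0.03. Acsl3, a fatty acid activating enzyme, differed by 0.17, and Hpgd, a prostaglandin-degrading enzyme, by -0.31, neither past the threshold (adjusted p = 0.797 and 0.855).

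The thyroid hormone list had 14 of 21 genes measured, 0 called and 2 at an unadjusted p under 0.05, or 14.3%, beside 5.68% over all tests. Hr, a corepressor induced by thyroid hormone in the brain, had the largest difference, 0.67 (SE 0.250, adjusted p = 0.767), and 0.43 without array XX female 8. The growth hormone and prolactin list had 19 of 30 measured, 0 called and 0 at an unadjusted p under 0.05. Its most different member, Igfbp6, at -0.50 (SE 0.376), was undetected on some arrays of every group.

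The glucocorticoid-responsive genes leaned towards higher values in XX females, and no member passed. Of 30 listed genes 22 were measured, all 22 differences were above 0, and the median was 0.17. Of the 22, 5 had an unadjusted p under 0.05, or 22.7%, beside 5.68% over all tests. Cdkn1a, a cell cycle inhibitor, differed by 0.87 (SE 0.291, adjusted p = 0.663), with 0.79 and 0.71 at its other probes. Bcl6, a transcriptional repressor, differed by 0.34 (SE 0.111, adjusted p = 0.620), and Fkbp4, a co-chaperone of steroid receptors, by 0.10 (SE 0.041, adjusted p = 0.797).

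Female arrays did not move together in this list. The mean deviation of its members ran from -0.30 to 0.82 over the XX females with a median of -0.0027, highest on array XX female 8. It ran from -0.31 to 0.19 over the XX males (median 0.096), from -0.27 to 0.07 over the XXY males (median -0.13) and from -0.33 to 0.49 over the XY males (median -0.13). The groups overlapped throughout. The mean difference was 0.23 with all arrays and 0.13 without array XX female 8. The list of immediate early genes had 17 of 28 measured, 0 called and a median of 0.13, with 14 differences above 0 and 3 below. Of the 17, 2 had an unadjusted p under 0.05, or 11.8%, beside 5.68% over all tests. The clock genes had 18 of 23 measured, 0 called, 2 at an unadjusted p under 0.05, or 11.1%, and a median of 0.06.

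**Figure D4:**
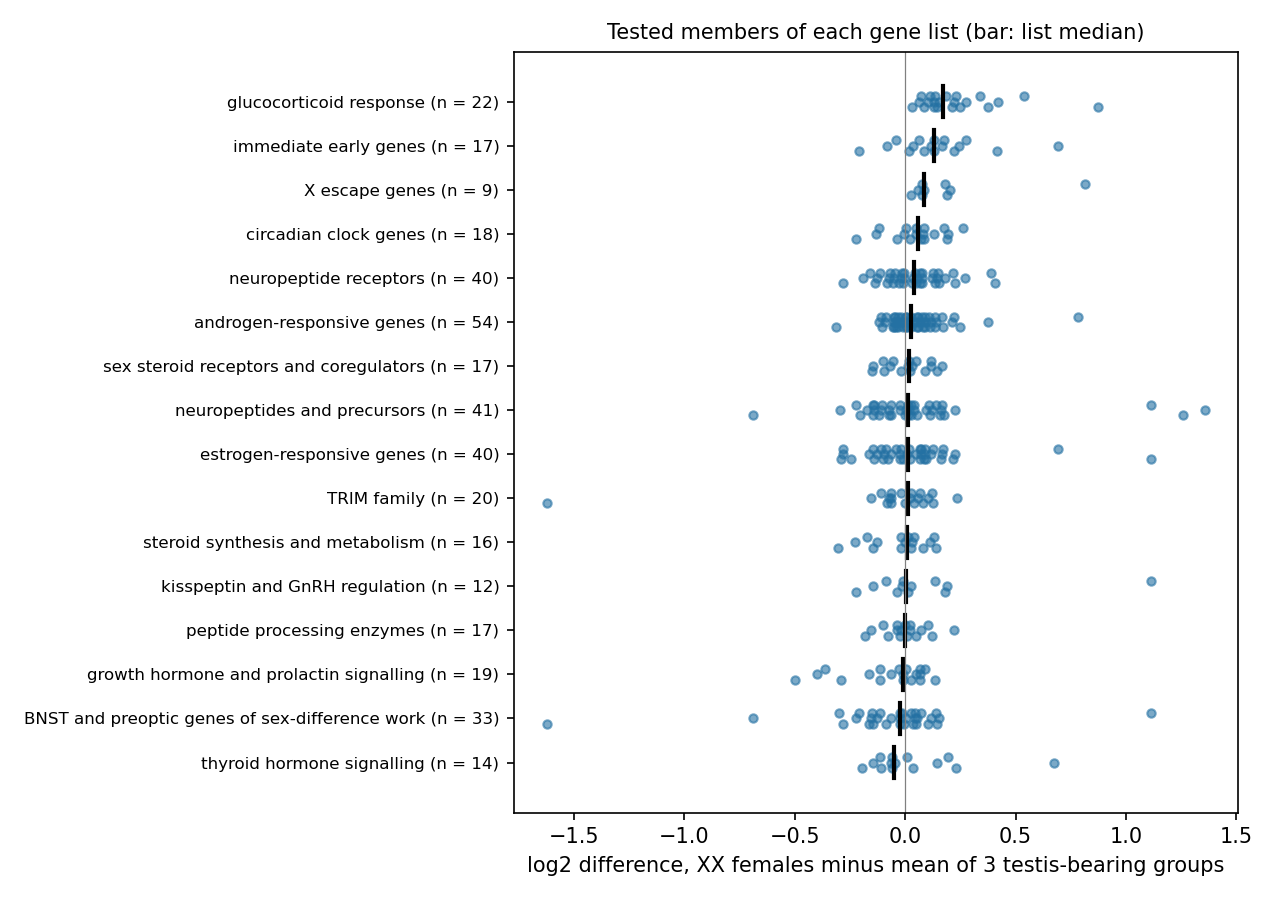
Log2 difference of XX females minus the mean of the testis-bearing groups (x axis) for each tested member of 16 gene lists (rows, with the number tested); black bars are list medians. Medians lie between -0.05 and 0.17; the highest points of the neuropeptide list are Hcrt at 1.36, Pmch at 1.26 and Kiss1 at 1.12, of which Kiss1 was called. The lowest point, Trim59, is a fitted value against undetected XX female arrays.

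Kiss1 was also the only neuropeptide gene called. Of 70 listed neuropeptides and precursors 41 were measured, with 22 differences above 0, 19 below and a median of 0.01. An unadjusted p under 0.05 was reached by Kiss1, Avp and Npb, or 7.32%, beside 5.68% over all tests. Penk, Crh and Gnrh1 had no named probe here. The kisspeptin and gonadotropin-releasing hormone list, with 12 of 23 measured, had 1 call, Kiss1, and a median of 0.0024. The Kiss1 call is the same single test in every list that holds it, and is no independent evidence there. Irf2bpl, a gene known in primates for a role in puberty, differed by 0.13 (SE 0.049, adjusted p = 0.752), and its second probe by -0.02. Tac2, the neurokinin B precursor that works with kisspeptin in the arcuate nucleus, differed by -0.22 (SE 0.140).

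Vasopressin is made by more cells in males than in females in the rodent BNST. Avp differed by -0.69 (SE 0.30, interval -1.30 to -0.08, adjusted p = 0.820), with -0.31 within batch 1 and -1.27 within batch 2. Oxytocin, Oxt, differed by -0.12 (interval -0.39 to 0.15). Npb, neuropeptide B, differed by -0.29 (SE 0.089, adjusted p = 0.559), with -0.24 and -0.37 within the batches.

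Differences of other peptides were small or imprecisely estimated. Galanin, Gal, differed by -0.06 (interval -0.33 to 0.21), somatostatin, Sst, by 0.03 (-0.11 to 0.16) and neurotensin, Nts, by -0.02 (-0.30 to 0.26). Prodynorphin, Pdyn, differed by 0.03 (-0.37 to 0.43) and Cartpt by 0.12 (-0.18 to 0.42). The intervals of Npy (-0.41 to 0.77) and Cck (-0.48 to 0.94) did not exclude a 1.5-fold difference. Gal, Tac2, Pdyn, Npy, Sst and Cartpt had opposite signs in the separate batches.

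The lateral hypothalamic peptides Hcrt and Pmch had the largest peptide differences, 1.36 and 1.26, and neither reached an unadjusted p under 0.05 in the limma fit. The lateral hypothalamic marker list, which holds both, had 4 of 5 measured, all with differences above 0, a mean difference of 1.20 within batch 1 and -0.0014 within batch 2. Its mean ran from -1.32 to 1.59 over the XX females and from -2.13 to 1.42 over the XY males, and its part in other results was not tested.

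Of 73 listed peptide receptors 40 were measured and 0 were called, and the median was 0.04. An unadjusted p under 0.05 was reached by 4, or 10%, beside 5.68% over all tests. The interval excluded a 1.5-fold difference for 38, beside 95.67% of all tests. Hcrtr1, an orexin receptor, differed by -0.28 (SE 0.080, adjusted p = 0.486), and its second probe by -0.09. Ghsr, the ghrelin receptor gene on chromosome 3, differed by 0.39 (SE 0.145, adjusted p = 0.767) and Npy5r, a neuropeptide Y receptor, by 0.23 (SE 0.089, adjusted p = 0.797). Of the peptide processing enzymes 17 of 26 were measured, 0 were called, 1 had an unadjusted p under 0.05 and all 17 intervals excluded a 1.5-fold difference.

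**Figure D5:**
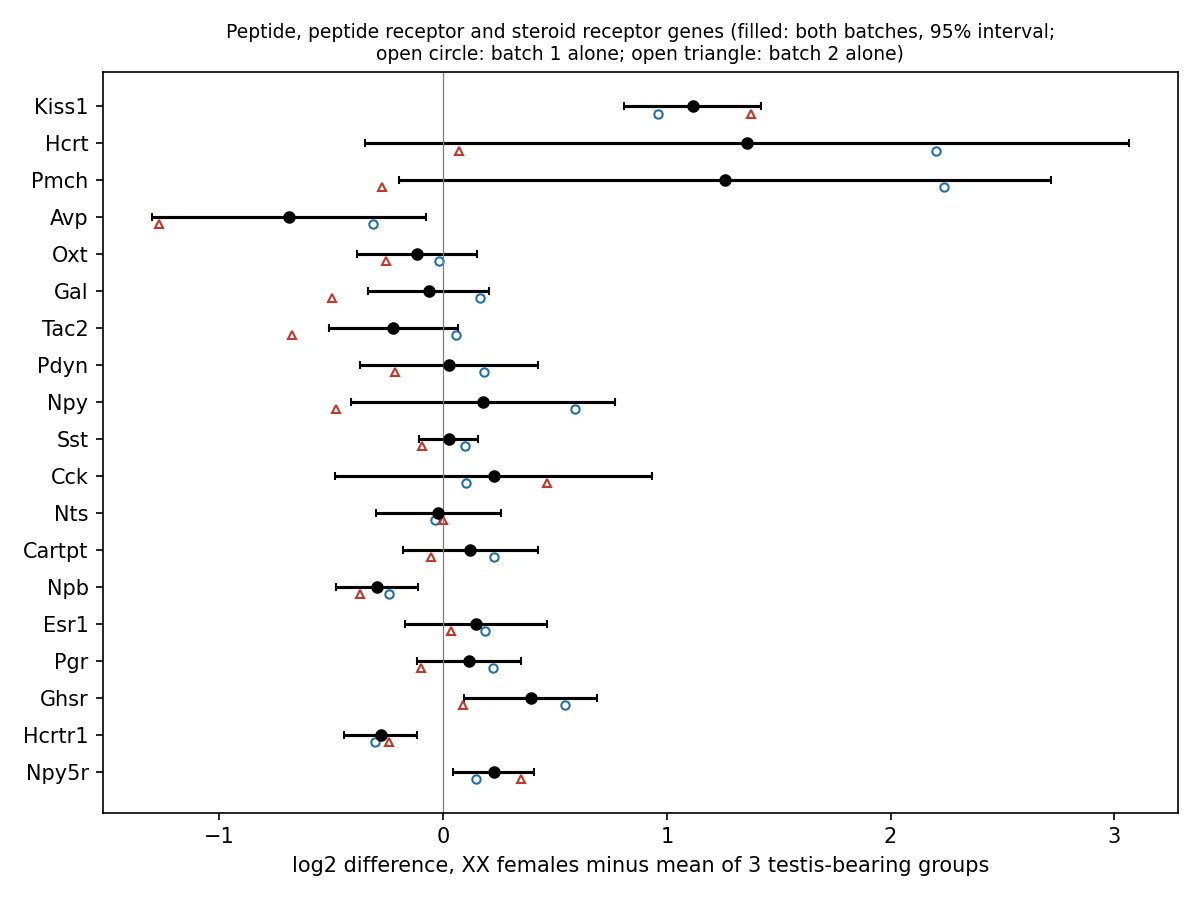
Log2 difference of XX females minus the mean of the testis-bearing groups (x axis) for peptide, peptide receptor and steroid receptor genes (rows); filled points with bars are estimates with 95% intervals, open circles batch 1 alone and open triangles batch 2 alone. Hcrt at 1.36 and Pmch at 1.26 have the highest estimates, with intervals that include 0, and Kiss1 follows at 1.12 with an interval of 0.81 to 1.42.

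Genes named in earlier work on sex differences of the BNST and preoptic area, and the relatives of Trim59, gave no further call. Of 48 genes of the former list 33 were measured, and Kiss1 and Trim59 were the 2 called. That list was written with these genes known from earlier results of these data, so the 2 calls are no independent evidence. Apart from these, Sytl4, a granule transport gene on the X chromosome, differed by -0.30 (SE 0.108, adjusted p = 0.752), with -0.04 within batch 1 and -0.75 within batch 2. Of 50 listed Trim genes 20 were measured, Trim59 alone was called and the median was 0.01. Trim36 differed by -0.15 (SE 0.077) and Trim32 by 0.06 (SE 0.043).

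Marker lists of other cells had 0 calls in limma. The oligodendrocyte markers had 8 of 8 differences below 0 (median -0.12, or -0.15 to -0.083 as each array was left out). Those of endothelium and pericytes had 6 of 6 below 0 (median -0.13). Of these 6, 2 had an unadjusted p under 0.05, or 33.3%, beside 5.68% over all tests. The meningeal markers had 6 of 6 below 0 (median -0.51). The meningeal mean difference was 0.07 within batch 1 and -1.35 within batch 2. The thalamic markers had 7 of 7 differences above 0, with a median of 0.27 that ran from 0.14 to 0.50 as each array was left out in turn. The astrocyte, microglial, and BNST and preoptic neuron lists had medians of 0.05, -0.03 and -0.02. The part of these lists in the other results was not tested.

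Among the check genes of the sex chromosomes, Xist and Eif2s3x were called against XY males and against neither group with 2 X chromosomes and testes. Xist differed by 0.81 in the pooled comparison (adjusted p = 0.486) and was at least 4.19-fold higher in XX females than in XY males. Eif2s3x differed by 0.04 from XX males, -0.05 from XXY males and 0.58 from XY males. The single Y-linked probe measured, named Uty, gave a detected signal in 7 of 8 XX females and so was no check of the Y chromosome.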

How the data were processed

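Total RNA from the BNST/POA was measured on 31 Illumina bead arrays. The deposited scanner table holds mean bead intensities on a linear scale and a detection p-value for each probe, per the file headers. The authors' processed log2 values were used only as an alternative; the submitters' processing notes name limma, and further steps behind those values are not stated there. The source labels gave the groups, and the descriptions gave the batches.

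Intensities were background-corrected from the detection p-values (offset 16), quantile-normalized and log2-transformed by the neqc function (limma 3.58.1, R 4.3.3). Probes with detection p under 0.05 on at least 7 arrays were kept (14989), and the brightest probe represented a gene. Names came from the platform annotation, with 5 symbols updated through RefSeq (GRCm38.p6). A probe without a name there is unnamed, not without a gene.

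A single fit with group and batch gave the contrasts, with two-sided moderated tests and Benjamini-Hochberg adjustment at 0.05, and a moderated F-test among the testis-bearing groups. List mean deviations are means over members of the batch-adjusted log2 signal minus each gene's mean. Named were Kiss1, Trim59, all calls, the 12 autosomal genes of smallest p in each direction, the 3 members of smallest p of each list, and fixed peptide, receptor and sex chromosome genes; a few other list members are named as examples chosen after their values were seen. Members and lists were chosen with earlier results of these data known. On simulated data with 11712 tests and normal noise, 100 genes were changed by 0.5 and 100 by 1 on the log2 scale. The pooled contrast recovered 74% of the former and 99% of the latter. So many changed genes make the adjustment less strict than it was in the data, with 6 calls. These shares therefore do not give the power reached here. Array number limits the precision. Alternatives covered the batch term, array XX male 6, normalization, filters, probes, array weights, each batch alone and each array left out.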

Additional observations from a re-analysis of the deposited data

Results flagged for a closer look

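Of 112 tests of single arrays against the rest of their group, made for the called genes and the 22 next autosomal genes on batch-adjusted log2 signals, 12 found a highest or lowest array set apart by its gap to the nearest array. Chance gives about 1 in 20. Trim59 on array XY male 4 was 5.36, below the next XY male at 6.52. ILMN_2899599 on array XX male 3 was 7.57, above the next at 6.84. Crem on array XX male 5 was 6.81, below 7.06. Cd1d1 on array XX male 3 was 5.86, below 6.41, and Tmem144 on array XY male 1 was 6.13, below 6.62. Array XY male 2 was set apart for Sowahb (7.46), Stip1 (12.9, above 12.7) and Tuft1 (8.57, below 8.81). Htra1 was set apart on arrays XX male 2 (11.8) and XXY male 7 (11.7, above 11.5). Sv2a was set apart on arrays XX female 7 (13.4, above 13.0) and XY male 6 (12.9, below 13.4). The Trim59 call was kept without array XY male 4, as without any other single array.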

How the results depend on the processing

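Kiss1 was called under 14 of 16 alternatives, the exceptions being either batch alone, and Trim59 under all 15 in which it was tested. The 6 pooled calls were kept when array XX male 6 was left out or counted in batch 2, with cyclic loess, without background correction, without a filter and with array weights. Requiring detection on all 31 arrays left 8499 tests and removed Trim59 by construction; it gave 1 pooled call, 1 autosomal, 1 against XX males, 0 against XXY males (485 at an unadjusted p under 0.05 in limma), 3 against XY males and 3 among the testis-bearing groups. Taking the 23 testis-bearing arrays as 1 group gave 3 pooled calls. Batch 1 alone gave 1 autosomal call and 0 against XX males (751 at an unadjusted p under 0.05). Batch 2 alone gave 0 against XX males (337) and 4 among the testis-bearing groups. These fits hold fewer arrays. Batch 2 alone also called Noct and Slc7a11 in the pooled comparison, at 51.2 and 50.4 Mb of chromosome 3. The submitters' processed values gave 4 pooled calls, 3 of them shared, with Crem added (adjusted p = 0.0283).

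The replicate numbers gave no clear pairing of the arrays. Of 45 same-numbered pairs across groups 14 correlated above 0.1, with a median of 0.037. Of 315 pairs with different numbers 85 did, with a median of -0.0056. A fit with the title number as a block gave 7 pooled calls, adding Crem (adjusted p = 0.0198), 3 autosomal calls and 1 against XX males, and the cause was not tested. The number of the descriptions as a block also gave 7 pooled calls.

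Leaving out each array in turn gave 6 to 8 pooled calls, 2 to 4 autosomal, 2 to 4 against XX males, 5 to 7 against XXY males, 8 to 10 against XY males and 7 to 9 among the testis-bearing groups. The 4 autosomal calls came without array XX female 7, which added Mboat2 and Hacd2. Of 82 named genes, 10 changed sign under at least 1 alternative, none of them past the threshold. Signal near background limits Trim59, ILMN_1221193, Anxa4 and Them4.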
